A study of Mus musculus with 6 samples.

Results

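The Klf genes described here are 10 members of the Krüppel-like factor family, Klf3, Klf4, Klf5, Klf6, Klf7, Klf9, Klf10, Klf12, Klf13 and Klf14, out of 21883 protein-coding genes on the main chromosomes of the mouse genome. They were followed in peak lists of H3K4me3, trimethylated lysine 4 of histone H3, a mark found at the starts of active and poised genes, made by chromatin immunoprecipitation and sequencing. The cells were Lgr5+ progenitor cells, supporting cells of the cochlea sorted by the green fluorescence of an Lgr5-EGFP-creERT2 allele, from C57BL/6 mice of either sex at postnatal days 0 to 3 whose cochleae were cultured with growth factors. In the first group the cells were exposed for 12 h to neomycin, an aminoglycoside that kills hair cells, and in the second they were untreated, with 2 H3K4me3 libraries in each. Cells of both groups carried the reporter allele, and nothing in the labels ties the 2 libraries of a group to separate cultures, so replicates may be technical. The genes were selected on their peaks in these same 4 lists (number, position, length and pileup in the gene and at its start), so their counts and values are given as a description, without a test. In addition, 4 libraries part into pairs in only 3 ways, which allows no informative exact test per gene.

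Klf factors bind GC-rich and CACCC-type DNA through a run of zinc fingers at their C terminus and share that preference with the Sp factors. They differ in their N-terminal part, which sorts them by partner. Klf4, Klf5, Klf6 and Klf7 belong to the mainly activating class, Klf3 and Klf12 recruit the CtBP corepressors, and Klf9, Klf10, Klf13 and Klf14 recruit the Sin3A corepressor. The family is known for control of proliferation, differentiation and the response to injury in epithelia.

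The lists held 14203 and 11545 peaks in neomycin replicates 1 and 2, and 15938 and 10520 peaks in untreated replicates 1 and 2. They carry no read totals, so the depth is unknown. The shortest peak was 48 and 110 bp in the neomycin lists and 187 and 234 bp in the untreated lists, and the median 70.0 and 142 bp against 310.5 and 340 bp, so bases under peaks are not on 1 scale across libraries. The names of the untreated lists say H3K4me2, whereas by the labels a single anti-H3K4me3 antibody served every library. The groups here follow the labels, and a doubt remains over which mark the untreated lists hold. Of 8 supporting and progenitor cell genes, 7 and 8 had a peak within 1 kb of the start in neomycin replicates 1 and 2 and 8 in each untreated library, and Lgr5 itself had one in all 4. Of 5 hair cell genes the counts were 2 and 1 against 4 and 1, and of 3 macrophage genes 0 in every library. For 4 neuron genes they were 0 and 1 with neomycin, against 2 and 1 without. They were 1 and 1 against 2 and 1 for 3 glia genes, and 1 and 0 against 1 and 0 for 3 endothelium genes. Of 6 mesenchyme genes, 0 and 0 were marked in neomycin cells and 2 and 3 in untreated cells. The part of such cells in the results below was not tested.

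All 10 Klf genes had a peak at the start in at least 1 library, as did 55.8% of protein-coding genes, and none had this mark in the neomycin cells alone. A start was called marked when a peak overlapped the 1 kb either side of it by at least 1 bp. Klf3, Klf4, Klf5, Klf12 and Klf13, 5 of the 10, were marked in all 4 libraries, as were 16.8% of all protein-coding genes and 30.0% of the genes marked in at least 1 library. Klf7 and Klf14, 2 of the 10, were marked in the untreated cells alone, that is in both of their libraries and in no neomycin library, a pattern shown by 4.78% of all genes and 8.56% of marked genes. The reverse pattern was shown by 0 of the 10 genes, against 1.43% of all genes and 2.56% of marked genes. Per library, 7 and 7 Klf genes were marked with neomycin and 10 and 8 without, while 35.2% and 34.1% of all protein-coding genes were marked with neomycin and 47.7% and 36.9% without. Untreated replicate 1 thus marked the most genes both among the 10 and in all. Both neomycin libraries marked 6 of the 10, against 23.5% of all genes, and both untreated libraries 8 of the 10, against 33.9%. Klf6, Klf9 and Klf10 were marked in some libraries of each group. Klf10 took the reverse pattern when untreated replicate 1 was left out, which gave 1 gene in place of 0, while the share among all marked genes was 10.7% in place of 2.56%.

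**Figure D1:**
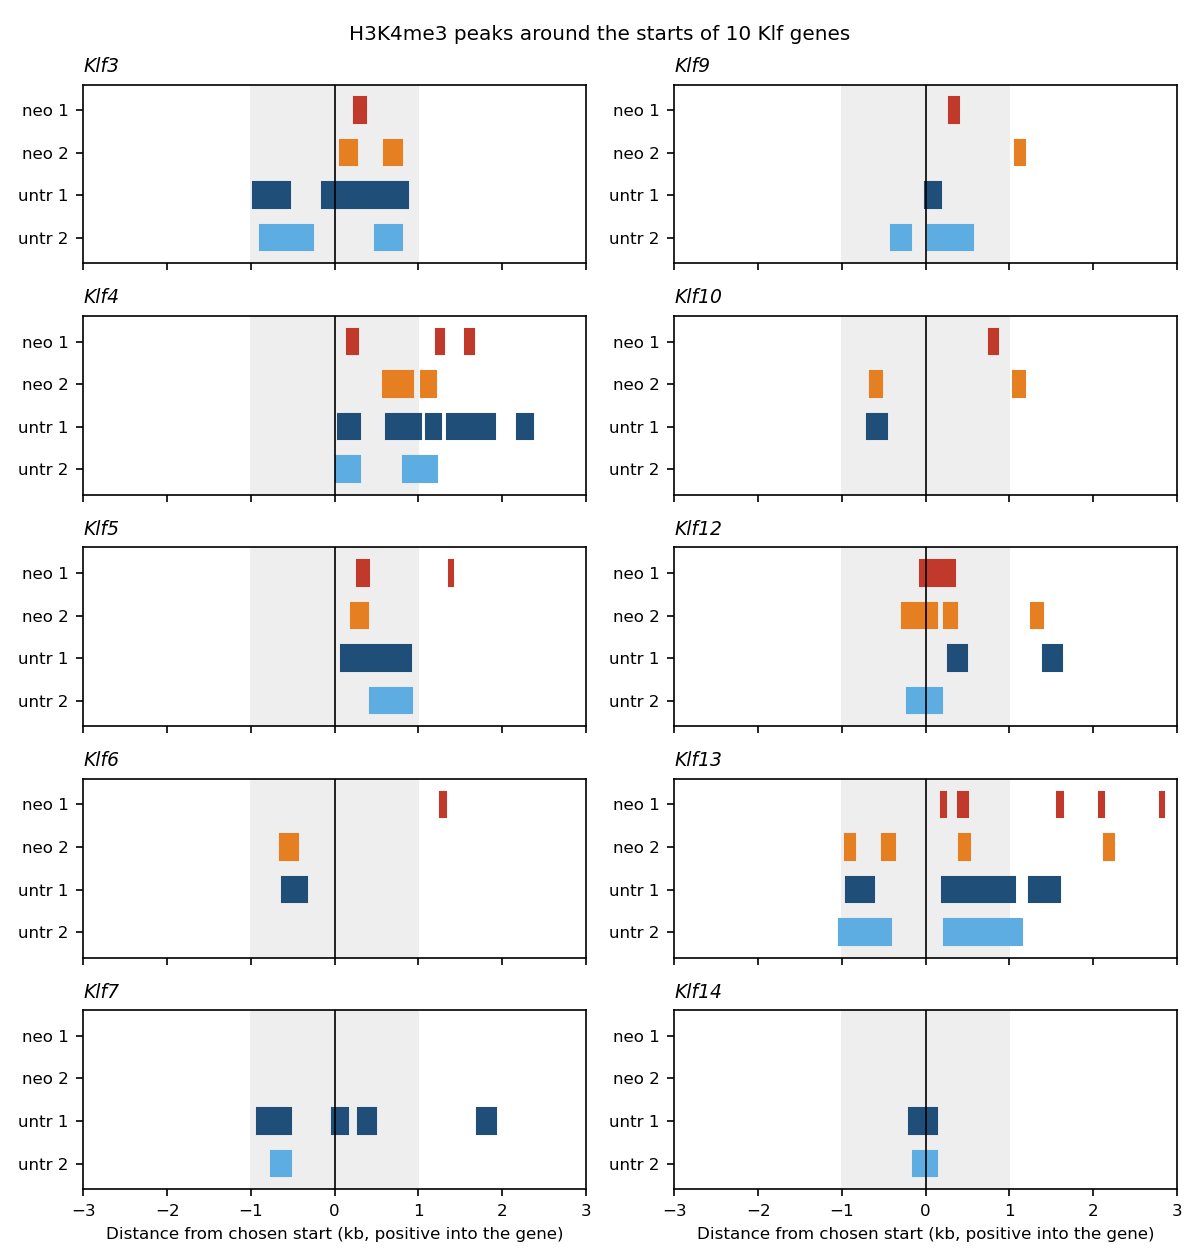
H3K4me3 peaks (bars) around the start of each of 10 Klf genes, with distance from the start in kb on the x axis (positive into the gene) and the libraries as rows (neo 1 and neo 2, neomycin replicates 1 and 2; untr 1 and untr 2, untreated replicates 1 and 2). The grey band is the window of 1 kb either side; Klf7 and Klf14 have bars in the untreated rows and none in the neomycin rows, and a peak of Klf13 at 44.6 kb lies outside the plot.

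For 7 of the genes the start was taken from RefSeq promoters of GRCm38.p6, the assembly of mm10, or from the gene's own upstream end. For Klf5, Klf10 and Klf14 it was whichever gene end had peaks in the larger number of libraries, whatever their treatment. The 250 bases before the start are shown for the genes whose mark lay beside it in all 4 libraries (Klf3, Klf4 and Klf13), for Klf7, marked in the untreated cells alone, and for Klf9, where peaks of both untreated libraries reached these bases. They run 5′ to 3′ on the strand of the gene, and capitals mark the GC box GGGCGG, the CACCC core and the longer element GGGTGTG, each searched on both strands. GGGTGTG holds the reverse complement of CACCC. A GC box and a CACCC core overlap in the Klf3 sequence and near the end of the Klf13 sequence.
Klf3: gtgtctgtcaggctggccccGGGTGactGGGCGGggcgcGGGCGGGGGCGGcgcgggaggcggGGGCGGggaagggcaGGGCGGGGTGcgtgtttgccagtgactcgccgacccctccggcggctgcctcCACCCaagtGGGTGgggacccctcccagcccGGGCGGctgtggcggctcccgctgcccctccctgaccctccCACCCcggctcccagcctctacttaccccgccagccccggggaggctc
Klf4: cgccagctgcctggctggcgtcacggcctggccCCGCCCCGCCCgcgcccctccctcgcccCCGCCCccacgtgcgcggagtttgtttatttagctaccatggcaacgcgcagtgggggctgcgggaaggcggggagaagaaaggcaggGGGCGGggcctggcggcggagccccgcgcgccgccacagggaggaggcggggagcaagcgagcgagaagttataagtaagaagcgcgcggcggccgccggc
Klf13: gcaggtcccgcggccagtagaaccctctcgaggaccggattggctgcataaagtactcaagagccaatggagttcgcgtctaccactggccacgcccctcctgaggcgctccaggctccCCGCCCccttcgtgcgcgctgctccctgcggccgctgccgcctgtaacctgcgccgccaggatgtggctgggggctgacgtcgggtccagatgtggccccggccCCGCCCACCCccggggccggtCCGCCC
Klf7: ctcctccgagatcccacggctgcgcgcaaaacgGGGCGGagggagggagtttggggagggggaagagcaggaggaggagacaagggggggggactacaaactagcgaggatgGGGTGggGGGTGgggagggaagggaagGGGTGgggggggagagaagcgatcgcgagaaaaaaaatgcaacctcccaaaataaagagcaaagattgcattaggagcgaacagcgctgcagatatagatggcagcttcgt
Klf9: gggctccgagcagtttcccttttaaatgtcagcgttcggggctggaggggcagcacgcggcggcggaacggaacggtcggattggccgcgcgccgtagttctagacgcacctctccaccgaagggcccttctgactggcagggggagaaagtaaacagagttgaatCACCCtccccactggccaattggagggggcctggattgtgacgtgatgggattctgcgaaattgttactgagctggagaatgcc
These are chr5:64803271-64803520 on the + strand, chr4:55532476-55532725 on the - strand, chr7:63938916-63939165 on the - strand, chr1:64121390-64121639 on the - strand and chr19:23140976-23141225 on the + strand of mm10, from Klf3 to Klf9 in the order shown. Klf3 held 6 GC boxes and 5 CACCC cores, Klf4 held 4 and 0, Klf13 held 3 and 1, Klf7 held 1 and 3, and Klf9 held 0 and 1. Over the 7 Klf promoters in the RefSeq table, 5 held a GC box, 5 a CACCC core and 1 GGGTGTG, while 42.6%, 54.2% and 7.08% of the 21262 promoters of protein-coding genes did. The Klf12 promoter among the 7, which held the 1 GGGTGTG and 1 of the CACCC cores, belongs to a start inside the gene that had no peak near it. The GC content of the 250 bases was 78.4% at Klf3, 74.0% at Klf4, 71.6% at Klf13, 59.6% at Klf9 and 59.2% at Klf7, against a median of 55.6% over all these promoters. The ratio of observed to expected CpG was 0.60, 0.94, 0.76, 0.83 and 0.75 in the same order, against a median of 0.53.

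Peaks reached these 250 bases at 0 and 0 of the 7 Klf promoters with neomycin, against 3 and 1 in untreated replicates 1 and 2. At Klf4, Klf6 and Klf13 none of the bases was under a peak in any library. At Klf3, 146 bases were covered in untreated replicate 1 alone, and at Klf7, 29 bases in the same library alone. At Klf9, 4 and 79 bases were covered in untreated replicates 1 and 2. The Klf12 promoter counted here belongs to the start inside the gene, not to the start used elsewhere. In the 1 kb before the Klf12 start used elsewhere, 62 and 284 bp were covered with neomycin, against 0 and 225 bp without. Across the promoter table, marked and unmarked genes together, 6.45% and 7.36% of promoters had a covered base with neomycin and 15.9% and 12.1% without.

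Klf4, of the activating class, is a factor of skin and gut epithelium and of induced pluripotency. It lies on chromosome 4 from 55527137 to 55532475, and all its peaks lay inside the gene. With neomycin it had 3 peaks in replicate 1 and 2 in replicate 2, against 5 and 2 in untreated replicates 1 and 2, counted in the gene and 1 kb either side. The window at the start was covered over 138 and 361 bp in the neomycin libraries, against 660 and 463 bp in the untreated libraries. The first peak began 145 and 579 bp inside the gene with neomycin, against 40 and 20 bp without. The summit of that peak stood at 242 and 630 bp with neomycin, against 155 and 173 bp without, so neomycin replicate 2 lay apart from the other 3 libraries. A region of 729 bp about 1 kb inside the gene held a peak in all 4 libraries. The nearer end of Gm12506, a long non-coding RNA gene, lies 235 bp before the Klf4 start.

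Klf5, which promotes proliferation of epithelial progenitors, lies on chromosome 14 from 99298691 to 99313412. It had 2 and 1 peaks with neomycin and 1 and 1 without. At its lower end the window was covered over 146 and 209 bp with neomycin, against 838 and 505 bp without. All 4 libraries shared 1 region of 853 bp just inside the gene. The first summit was at 343 and 328 bp in the neomycin libraries and at 759 and 505 bp in the untreated libraries. The upper end of the gene had its nearest peak 13.3 to 14.3 kb away, so that the mark stood at the lower end in every library.

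Klf6, an early response gene of tissue injury, lies on chromosome 13 from 5861489 to 5870393. It had 1 and 1 peaks with neomycin and 1 and 0 without. Neomycin replicate 2 and untreated replicate 1 shared a region of 320 bp before the start, with summits 492 and 461 bp outside the gene. Neomycin replicate 1 had only a peak of 71 bp that began 1.26 kb inside the gene, just beyond the window. Untreated replicate 2 had no peak nearer than 787 kb. The groups overlapped, and each held a library with and a library without a marked start.

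Klf7, known for its role in neurons and axon growth, lies on chromosome 1 from 64029448 to 64122345. It had 0 and 0 peaks with neomycin and 4 and 1 in untreated replicates 1 and 2. The window was covered over 0 and 0 bp with neomycin, against 814 and 249 bp without. The nearest peaks in the neomycin libraries lay 411 and 411 kb from the start, outside the gene. Both untreated libraries shared a region of 410 bp before this start, with summits 695 and 650 bp outside it. That region lies close to the upper end of the gene, which is 956 bp before this start. Its strongest peaks had pileups, the authors' read coverage at the summit, of 15 and 12, and by the caller's q they ranked at percentiles 73.4 and 74.4 of their own lists. The nearer end of Gm35880, a long non-coding RNA gene, lies 178 bp before the Klf7 start, so the shared region cannot be given to either gene alone.

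**Figure D2:**
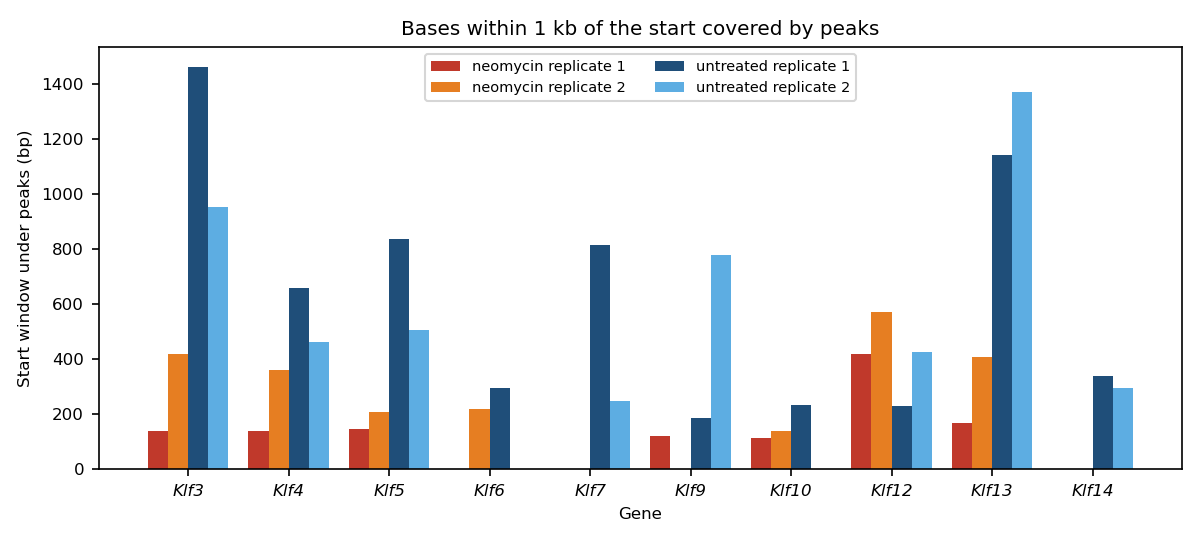
Bases of the window 1 kb either side of the start that lay under peaks (y axis, bp) for each of 10 Klf genes (x axis), with 1 bar per library and no error bars. Both untreated bars are the higher at Klf3, Klf4, Klf5, Klf7, Klf9, Klf13 and Klf14, whereas at Klf12 neomycin replicate 2 is the highest with 573 bp; untreated peaks are longer in the lists as a whole.

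Klf3 and Klf12, of the CtBP-binding class, were marked in every library. Klf3, a repressor studied in red blood cells and fat, lies on chromosome 5 from 64803521 to 64832901. It had 1 and 2 peaks with neomycin and 2 and 2 without, over 139 and 418 bp against 1462 and 953 bp of the window. In the neomycin libraries all covered bases lay inside the gene, while in the untreated libraries 587 and 635 bp lay before the start and 874 and 318 bp after it. The region before the start, 711 bp long, thus held a peak of each untreated library and of no neomycin library. The start of Klf3 lies within Gm38457, another protein-coding gene of the annotation, so these bases cannot be given to Klf3 alone.

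Klf12, a repressor of the gene for the factor AP-2 alpha, lies on chromosome 14 from 99866181 to 100285891 and is the longest of the 10 genes at 420 kb. It had 1 and 3 peaks with neomycin and 2 and 1 without, all of them within 2 kb of its upper end. The window there was covered over 418 and 573 bp with neomycin, against 229 and 425 bp without, so the groups overlapped. A region of 780 bp held a peak in all 4 libraries. Among genes marked in the same library these covered bases stood at percentiles 99.6 and 98.4 with neomycin and 16.0 and 53.4 without. A second RefSeq start, 136 kb inside the gene, had no peak within 134 kb in any library. Gm41231, a long non-coding RNA gene, overlaps the upper end.

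Of the Sin3A-binding class, Klf13 had the widest mark. This regulator of lymphocyte and heart genes lies on chromosome 7 from 63886351 to 63938915. It had 6 and 4 peaks with neomycin and 3 and 2 without, while the bases of the window under peaks were 169 and 407 bp against 1142 and 1373 bp. It was the 1 gene of the 10 with more peaks in both neomycin libraries than in both untreated libraries, a pattern of 3.86% of all genes and 6.49% of genes with a peak. With no flank around the gene, Klf13 lost this pattern and Klf10 was the 1 gene that had it, against 5.4% of genes with a peak. Without neomycin replicate 1 there were 3 such genes, without neomycin replicate 2 there were 2, and without untreated replicate 1 there were 3, while the share among all genes with a peak was 17.3%, 22.6% and 16.7%. The neomycin peaks were short, 49 to 119 bp in replicate 1 and 125 to 152 bp in replicate 2, and a peak of each neomycin replicate fell within single untreated peaks of 870 and 928 bp. Both neomycin libraries had a summit at the same base, 469 bp inside the gene. A region of 183 bp about 2.1 kb inside the gene held peaks of both neomycin libraries alone. Before the start, peaks of neomycin replicate 2 and both untreated libraries formed a region of 662 bp, which with the peaks inside the gene flanked the uncovered promoter sequence shown above.

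Neomycin replicate 1 also had a peak of 49 bp deep in Klf13, 44.6 kb from the start, at chr7:63894331-63894379. Its pileup was 28 and its q ranked at percentile 97.7 of the list, the highest rank of any peak of the 10 genes. No other library had a peak there.

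Klf9, a target of thyroid and glucocorticoid hormone, lies on chromosome 19 from 23141226 to 23168129. It had 1 and 1 peaks with neomycin and 1 and 2 without. The window was covered over 121 and 0 bp with neomycin, against 187 and 778 bp without. The peak of neomycin replicate 2 began 1.07 kb inside the gene, and with a window of 2.5 kb Klf9 was marked in all 4 libraries. A region of 570 bp at the start held peaks of neomycin replicate 1 and both untreated libraries. In covered bases the untreated libraries differed more from each other than untreated replicate 1 did from neomycin replicate 1.

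Klf10, induced early by TGF-beta, lies on chromosome 15 from 38291464 to 38300711. It had 1 and 2 peaks with neomycin and 1 and 0 without, and its window at the upper end was covered over 112 and 140 bp with neomycin and 234 and 0 bp without. Neomycin replicate 2 and untreated replicate 1 shared a region of 234 bp outside the gene end, with summits 564 and 522 bp from it. The peaks inside the gene, at 852 and 1110 bp, came from neomycin replicates 1 and 2 and did not overlap each other. The nearest peak of untreated replicate 2 lay 170 kb away. Gm35248, a long non-coding RNA gene, covers this gene end.

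Klf14, an imprinted gene expressed from the maternal copy, is the shortest of the 10 at 2.97 kb, on chromosome 6 from 30956021 to 30958990. It had 0 and 0 peaks with neomycin and 1 and 1 without, and its upper end was covered over 0 and 0 bp against 337 and 294 bp. The untreated peaks, chr6:30958849-30959185 and chr6:30958848-30959141, had summits 41 and 42 bp inside the gene and both spanned its end. They were weak within their lists, with pileups of 11 and 8 and ranks by q at percentiles 33.0 and 12.1. In the neomycin lists the nearest peaks lay 62.7 and 259 kb away. No other gene of the annotation lies within 1 kb.

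A peak in the gene or 1 kb either side was found at all 10 genes in some library, as at 59.5% of protein-coding genes. The 10 genes held 16 and 16 peaks with neomycin and 21 and 12 without, so the groups overlapped. Klf7 and Klf14 had more peaks in both untreated libraries than in both neomycin libraries, 2 of 10 genes, against 6.29% of all genes and 10.6% of genes with a peak. For bases under peaks, 7 of 10 genes were higher in both untreated libraries, against 31.6% of all genes and 53.2% of genes with a peak, and 0 of 10 in both neomycin libraries, against 1.73% and 2.91%. The second count was 2 without neomycin replicate 1 and 2 without untreated replicate 1, against 9.52% and 11.2% of genes with a peak. Since untreated peaks were longer throughout, each sum was also divided by the median peak length of its own list, a step chosen after seeing the data. Then 2 genes (Klf7 and Klf14) were higher in both untreated libraries, against 20.6% of genes with a peak, and 3 (Klf6, Klf10 and Klf12) in both neomycin libraries, against 14.4%. The 5 other genes had no such separation on that scale.

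The width of the mark was also ranked within each library. The median covered length was 139 and 361 bp over 7 and 7 marked Klf genes with neomycin, against 106 and 184 bp over all marked genes. In untreated replicates 1 and 2 it was 498.5 and 484 bp over 10 and 8 Klf genes, against 429 and 403 bp. Klf3 stood at percentiles 65.1 and 91.5 with neomycin and 99.8 and 96.1 without, and Klf13 at 74.9 and 90.6 with neomycin and 97.9 and 99.6 without. Klf14 stood at 33.3 and 28.2 in the untreated libraries, and Klf10 at 53.1 and 33.5 with neomycin and 17.0 in untreated replicate 1. These ranks describe each library. Over lists of unequal length they cannot show whether the width changed between groups, and this was not tested.

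**Figure D3:**
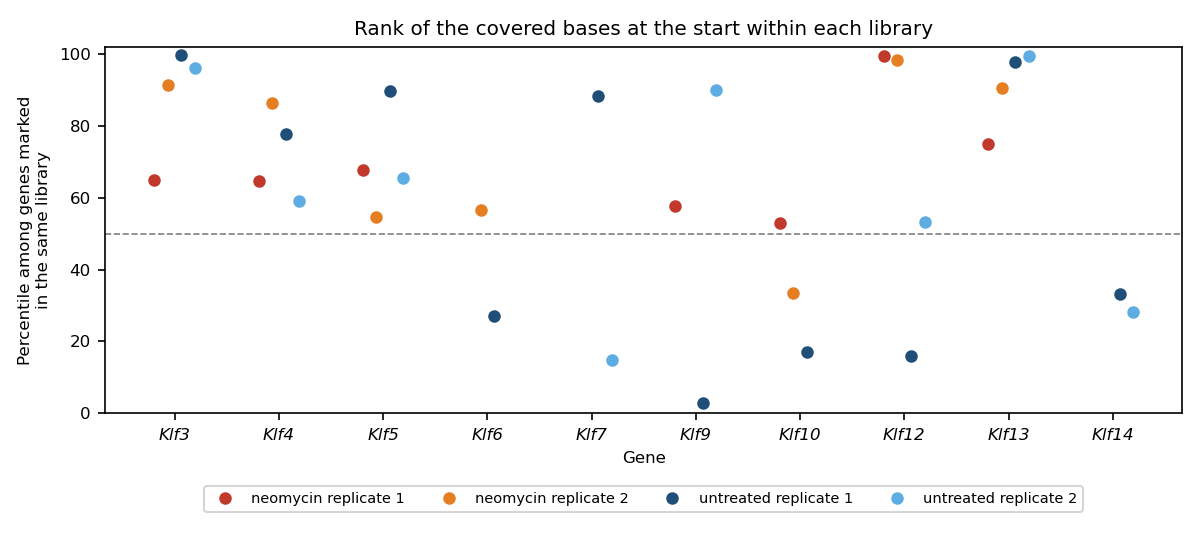
Percentile of the covered bases at the start among all genes marked in the same library (y axis) for each of 10 Klf genes (x axis), with 1 point per library in which the gene was marked and a dashed line at the middle gene. Klf3, Klf4, Klf5 and Klf13 lie above the line in all 4 libraries, Klf12 is near the top in the neomycin libraries alone, and Klf14 lies below it.

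The start peaks of the 10 genes had pileups around the middle of their lists. The pileups were 5 to 9 and 8 to 12 in the neomycin libraries, where the medians of the lists were 7 and 11. They were 10 to 15 and 8 to 13 in the untreated libraries, where the medians were 13 and 11. Their summits lay mostly on the inner side of the chosen start. With neomycin 8 of 8 and 6 of 11 did, and 10 of 15 and 8 of 12 without. At Klf7 this start lies 956 bp inside the gene, so summits just before it can still lie within the gene. These counts include Klf5, Klf10 and Klf14, which were read at a gene end. Over the other genes with a RefSeq start, 74.2% and 72.4% of summits lay on the inner side with neomycin and 75.5% and 77.8% without. When overlapping peaks of the 4 libraries were joined, the 10 genes held 30 regions, of which 14 (46.7%) had a peak in a single library and 5 (16.7%) in all 4, while 44.9% and 12.5% of the 21456 regions at protein-coding genes did. The 5 regions lay at Klf3, Klf4, Klf5, Klf12 and Klf13.

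Of the other 16 genes of the Klf and Sp family, 7 and 6 (43.8% and 37.5%) had a start peak with neomycin and 10 and 8 (62.5% and 50.0%) without. Over all protein-coding genes these shares were 35.2% and 34.1% with neomycin and 47.7% and 36.9% without, with untreated replicate 1 the highest in both. Of all these genes, 16.8% were marked in all 4 libraries, 1.43% in the neomycin cells alone and 4.78% in the untreated cells alone. Klf2, a factor of blood vessel lining, Klf16 and Sp3 were marked in all 4 libraries. Sp1, a broadly expressed activator, and Sp7, a factor of bone formation, were marked in the untreated cells alone. Klf15, a glucocorticoid-responsive regulator of metabolism, was marked in the neomycin cells alone, with 93 and 115 bp of peaks against 0 and 0 bp. Klf8, Klf17, Sp6, Sp8 and Sp9 had no start peak in any library. By the distance between log2 values of the bases under peaks plus 1, over 4 libraries, Klf1, Klf16 and Klf2 were nearest to the median of the 10 genes, at 0.73, 1.19 and 1.92, while among the 10 genes themselves the distance ran to 10.71 at Klf7.

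**Figure D4:**
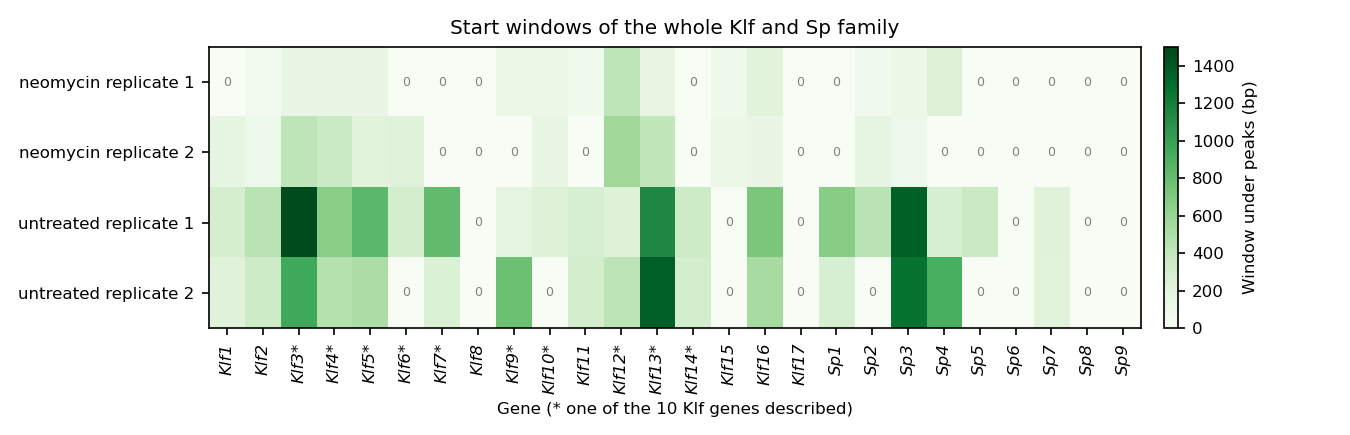
Bases of the start window under peaks (colour, bp) in each library (rows) for the 26 genes of the Klf and Sp family (columns), with 0 printed where there was no peak and an asterisk at the 10 genes described. Klf3 and Klf13 are among the darkest columns in the untreated rows, and Klf15 has colour in the neomycin rows alone.

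Partners, inducers and targets of the Klf factors were counted in the same way, and their counts stand beside start marks at 35.2% and 34.1% of all protein-coding genes with neomycin and 47.7% and 36.9% without. A mark in the neomycin cells alone was shown by 1.43% of all genes, and in the untreated cells alone by 4.78%. Of 10 corepressors and coactivators, 7 and 9 had a start peak with neomycin and 8 and 8 without. In all 4 libraries 5 had one, against 16.8% of all genes and 30.0% of marked genes. Among the 5 were Sin3a, the partner of the Klf9 class, and the acetyltransferase genes Ep300 and Crebbp. Hdac1, a histone deacetylase of the Sin3A complex, was marked in the neomycin cells alone, with 48 and 380 bp in the gene and 1 kb either side against 0 and 0 bp. The counts were 3 and 2 with neomycin and 3 and 3 without for 3 ubiquitin ligases that act on Klf proteins. They were 8 and 8 with neomycin and 12 and 11 without for 14 genes upstream of Klf genes. Of these, Thra, a thyroid hormone receptor, was marked at the gene end in the untreated cells alone, although the gene and 1 kb either side held 1 and 3 peaks with neomycin and 3 and 1 without. For 10 genes that Klf factors are known to regulate, they were 7 and 6 with neomycin and 7 and 4 without. Of these, Cdkn1a, the p21 gene and a target of Klf4 and Klf6, was marked in the neomycin cells alone. Its start window was covered over 179 and 387 bp with neomycin, against 0 and 0 bp without. The gene and 1 kb either side held 370 and 529 bp of peaks against 0 and 0 bp. Nr3c1, of the 14 genes upstream of Klf genes, had no start peak in any library. Yet it held 3 and 3 peaks with neomycin and 5 and 4 without, in the gene and 1 kb either side. Among the genes named outside the 10, Lgr5, Klf16, Sp6, Sp7, Hdac1, Thra and Nr3c1 were read at a gene end. That end is not known to be the start. Some list genes not named here were also read at such an end.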

How the data were processed

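The authors deposited 1 peak list per H3K4me3 library, which means that replicates were not pooled. CASAVA 1.4, Bowtie2, MACS2, deepTools and the build mm10 are named in the submitters' processing notes, and the sources used here do not give their parameters. Protein sequences were not used here, so the planned zinc finger search was not run. The columns are, per the file headers, position, length, pileup signal at the summit, fold enrichment and -log10 p and q. Input libraries were not analysed here.

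Peaks were assigned to 21883 protein-coding genes of RefSeq GRCm38.p6. The start of a gene was a start of the RefSeq promoter table or the upstream gene end (17491 genes), or either gene end where that table has no entry (4392 genes). Of several starts, the chosen start had peaks in more libraries, then more bases under peaks, then the lower coordinate. Untreated peaks are longer and weigh more where bases decide. The table lists no exons, so exons and introns are not given.

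The Klf genes and all lists were chosen with earlier results of these data known. All 10 Klf genes are named, and other Klf and Sp genes when marked in all 4 libraries or in 1 group alone. Genes of the partner, inducer and target lists are named when marked in 1 group alone. Cell type genes other than Lgr5 are given as counts, also where marked in 1 group alone. Family genes with no start peak, the acetyltransferases, Sin3a and Nr3c1 were named after their values were seen. Alternatives were a q filter, lists of equal length, joined peaks, other windows and flanks, and leaving out each library. Shares under each alternative are over the genes marked, or with a peak, in at least 1 library before it was applied. The assignment was tested on simulated data. Python 3.11.15, pandas 2.3.3, numpy 2.4.6 and matplotlib 3.10.9 were used.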

Additional observations from a re-analysis of the deposited data

How the results depend on the processing

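Klf7 and Klf14 were marked at the start in both untreated libraries alone. The count of 2 stayed with joined peaks, with a 2.5 kb window and with at least 200 bp covered. The share among all marked genes was 8.56%, 7.89% and 32.9%. These settings could not change the count. Joining cannot alter a start mark, and the nearest neomycin peaks lay 62.7 kb or more from these starts. A stricter cover cannot add neomycin marks, and untreated peaks covered 249 to 814 bp. The count fell to 1 (Klf7) with lists of equal length, against 9.25% of marked genes, and to 0 when peaks needed a -log10 q of 10 or more. With that q filter, 0 genes were marked in all 4 libraries, 0 had more peaks in both neomycin libraries, 0 had more in both untreated libraries and 0 had more bases there. Of all protein-coding genes, 0 were then marked in all 4 libraries, 1 with neomycin alone and 1469 without neomycin alone. The 1469 are 12.0% of the genes marked before the filter. More peaks in both neomycin libraries were then found at 0.00768% of genes with a peak before the filter. In both untreated libraries, 12.4% had more peaks and 12.8% more bases. The mean number of peaks per library over the 10 genes was then 0.5 with neomycin and 4 without, in place of 16 and 16.5. With lists of equal length, 2 genes were marked in all 4 libraries, 1 had more peaks and 4 had more bases in both untreated libraries, against 20.7%, 10.3% and 45.5% of genes marked or with a peak. With at least 200 bp covered, 1 gene, Klf12, was marked in all 4, against 4.08% of marked genes. With no flank, Klf10 had more bases in both neomycin libraries (1 gene, against 2.76% of genes with a peak). It also replaced Klf13 as the 1 gene with more peaks there, against 5.4%. With a flank of 5 kb, 2 genes had more peaks there, against 7.02%. With bases divided by the median length of the list, 3 genes were higher in both neomycin libraries, against 14.4% of genes with a peak. In both untreated libraries 2 were higher, against 20.6%.

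Leaving out each library in turn gave 5 to 6 genes marked in all remaining libraries, against 31.4% to 41.9% of marked genes. It gave 0 to 1 genes marked with neomycin alone, against 3.93% to 10.7%, and 2 to 3 without neomycin alone, against 10.5% to 20.4%. More peaks were found in 1 to 3 genes with neomycin, against 8.26% to 22.6% of genes with a peak. They were found in 2 to 3 without, against 14.2% to 26.6%. More bases were found in 0 to 2 genes with neomycin, against 4.41% to 11.2%, and in 7 to 8 without, against 54.0% to 79.5%. Leaving out a library can keep or add genes in each of these patterns but cannot remove any. The mean number of peaks per library was 16 with neomycin in each case and 12 to 21 without. The cause of these shifts was not tested. No paired analysis was possible because the values come from no test, and the labels do not say that the numbers 1 and 2 tie a neomycin library to an untreated one. Depth is unknown, so a missing peak means that none was called.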
